A study of Homo sapiens with 4 samples.

Results

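YAP1 is the human gene that encodes YAP, and its locus was examined for deposited ChIP-seq peaks of 2 YAP antibodies and of TEAD1 in the human cell line H69. The peaks were chosen by position: a peak was taken where its centre lay within 50 kb of the YAP1 gene body, which spans chr11:101981192-102104154 on build hg19 and runs on the plus strand. This gave 10 of the 61551 peaks in the 3 lists, of which 6 came from TEAD1, 4 from the Avruch antibody against YAP and 0 from the Santa Cruz antibody against YAP. The locus had been singled out because it holds peaks of a YAP antibody, so the presence of those peaks is a description and was not tested.

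The study made 4 libraries from formaldehyde-fixed, sonicated chromatin of H69 cells, for which no treatment or genetic change is labelled, with 1 library per antibody and no replicate. The antibodies were an unrelated IgG, YAP Santa Cruz, a further YAP antibody and TEAD. In the design text of the series, the further YAP antibody is named Avruch and TEAD is named TEAD1. The IgG library was not analysed here. The lists held 2471 Santa Cruz, 10118 Avruch and 48962 TEAD1 peaks, and read depth is unknown, so a list without a peak at YAP1 does not show that the protein was absent there. The labels give no tissue for H69, and markers of a cell type were not analysed here.

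YAP is a transcriptional coactivator that carries signals of the Hippo pathway into the nucleus. It has no DNA-binding domain of its own and reaches DNA mainly through TEAD proteins, of which TEAD1 is one. When the Hippo kinases are active, YAP is phosphorylated and held in the cytoplasm or degraded. The question addressed here was whether the gene of YAP itself carried peaks of the YAP antibodies, and whether those lay at TEAD1 peaks.

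The sequence just before the start of YAP1 is shown because the highest-scoring TEAD1 peak of the locus lies across that start. It covers 250 bases that end at the base before the start annotated by RefSeq (GRCh38.p14, chr11:102110197-102110446, plus strand), and the capitals mark the TEAD core motif GGAATG. As a reference, 100 bases before CCN2, a widely used YAP target gene formerly called CTGF, are printed with the same marking (GRCh38.p14, chr6:131951454-131951553, minus strand, 181 to 82 bases before its start).

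YAP1: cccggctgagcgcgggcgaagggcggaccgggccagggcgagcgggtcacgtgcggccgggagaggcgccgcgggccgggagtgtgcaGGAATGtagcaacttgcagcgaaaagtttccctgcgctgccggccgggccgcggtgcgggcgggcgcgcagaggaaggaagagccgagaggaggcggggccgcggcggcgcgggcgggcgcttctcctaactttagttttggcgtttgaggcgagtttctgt

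CCN2: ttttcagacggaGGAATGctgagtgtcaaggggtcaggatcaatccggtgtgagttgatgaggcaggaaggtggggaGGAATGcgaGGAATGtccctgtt

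The 250 bases before YAP1 held the motif GGAATG 1 time, 162 to 157 bases before the start. Both strands were searched, and 11.9% of 35116 RefSeq promoters of the same length held it at least 1 time (4175 promoters). CCN2 held it 3 times, and 0.94% of the promoters held 2 or more copies. The AP-1 motif TGANTCA, present in 6.57% of these promoters, was not among the letters of the YAP1 window. Of 17 other genes of the Hippo pathway, 13 had at least 1 promoter in the table, and 3 of these held GGAATG in one of theirs: AMOTL2 (a negative regulator of YAP), CCN2 and ANKRD1 (a YAP target gene). These 13 genes had 1 to 5 promoters each, so this count of genes cannot be set against the 11.9%, which is a share of promoters. A match describes letters only and is not a measured binding site. The peaks are on hg19 and the sequence is on GRCh38, and positions were not converted. The YAP1 gene body is 122963 bp long in the first and 122978 bp in the second, a difference of 15 bp, so the annotated starts need not be the same base.

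The 10 peaks fell into a group at the start of the gene, a scatter of TEAD1 peaks inside it, 1 Avruch peak near its end and 3 peaks after it. The score that the authors deposited for each peak has no stated unit and is compared only within a list. The map of the locus shows that the Avruch and TEAD1 peaks coincided at 1 place, which lay after the gene.

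**Figure D1:**
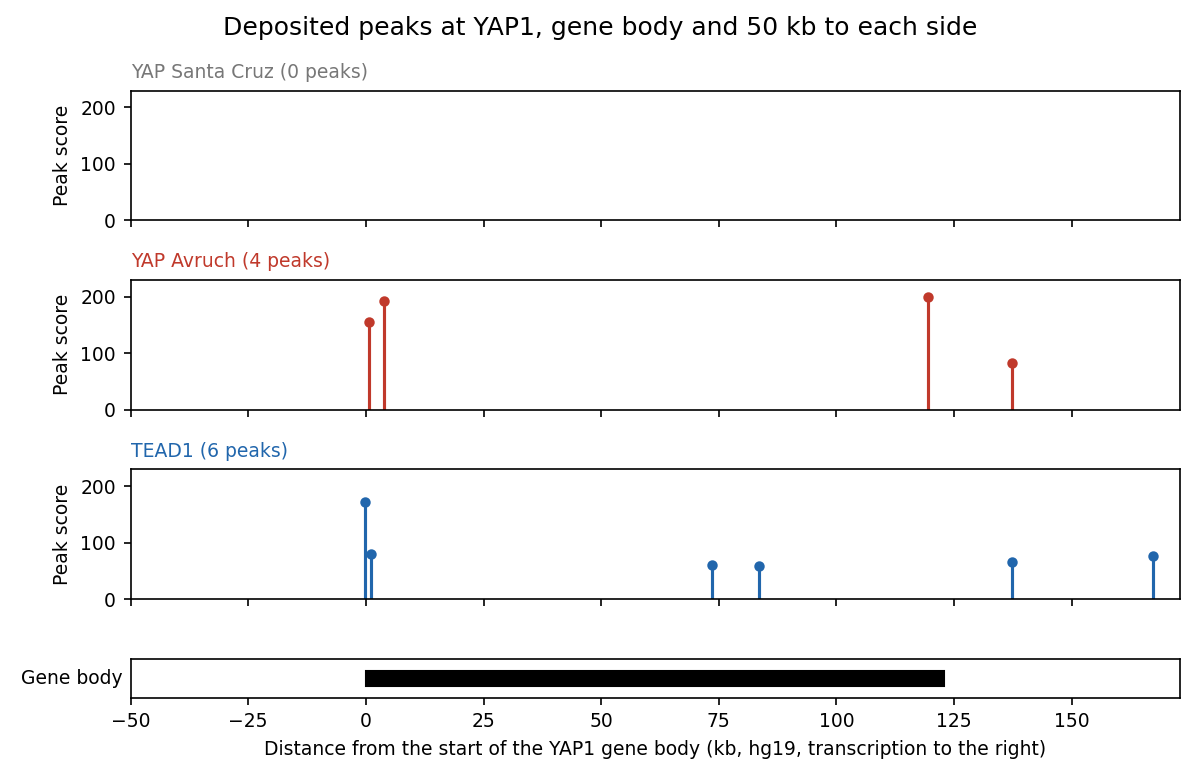
Score of each deposited peak (vertical axis, authors' value) against its distance from the start of the YAP1 gene body in kb on hg19, with 1 panel per antibody and the gene body as a black bar. The 3 Avruch peaks in the gene body score from 155.35 to 200, the Santa Cruz panel is empty, and the only position with a peak in 2 panels lies about 14.4 kb after the gene.

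The Avruch antibody gave 3 peaks inside YAP1, and they were the highest-scoring Avruch peaks of the locus. The first lay at chr11:101981698-101981922, from 506 to 730 bp after the start, was 225 bp wide and had a score of 155.35. The second lay at chr11:101984877-101985126, from 3685 to 3934 bp after the start, was 250 bp wide and had a score of 192.89. These peaks thus sat near the start of the gene, with 2954 bp between them. The third lay at chr11:102100441-102100678, was 238 bp wide, ended 3476 bp before the end of the gene and had the highest score of the 4, at 200. Between the second and the third was a stretch of 115.3 kb without an Avruch peak, which is most of the gene.

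Within the Avruch list, these 3 peaks ranked high. Scores were lower in 95.9% of Avruch peaks for the first, 97.1% for the second and 97.2% for the third. The labels give sonicated fragments of about 250 bp, and the widths of the peaks inside YAP1, 225 to 250 bp, were close to that size. The median width of the whole Avruch list was 149 bp, and whether fragment size set the widths was not tested. The 3 peaks were also alike in width, although the list ranged on chromosome 11 alone from 60 to 1179 bp. Exon positions of build hg19 were not used here, so the edges of these peaks were not compared with exon edges, and whether the peaks lie in exons was not tested. That comparison matters because reads from an introduced YAP1 cDNA would align to exons and give peaks bounded by exon edges, whatever was bound at the gene. No such construct is labelled, and whether one contributed to these peaks was not tested.

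Peaks as high-scoring as these were mostly much wider elsewhere in the Avruch list. On placed chromosomes, the median width of Avruch peaks whose score lay within 25% of that of the first YAP1 peak was 550 bp (271 peaks), and 8.86% of them were narrower than it. For the second peak the median was 648 bp (175 peaks, 6.29% narrower). For the third it was 675 bp (165 peaks), and 3 of these peaks were narrower (1.82%). On chromosome 11, 12 of 369 Avruch peaks reached a score of at least 155.35. The 3 at YAP1 were the narrowest of these, as the other 9 were 277 to 910 bp wide. The plot of score against width shows the same from the side of width: of 241 Avruch peaks 225 to 250 bp wide, 7 scored at least 155.35, and 3 of those were the peaks inside YAP1. The median score at that width was 74.27.

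**Figure D2:**
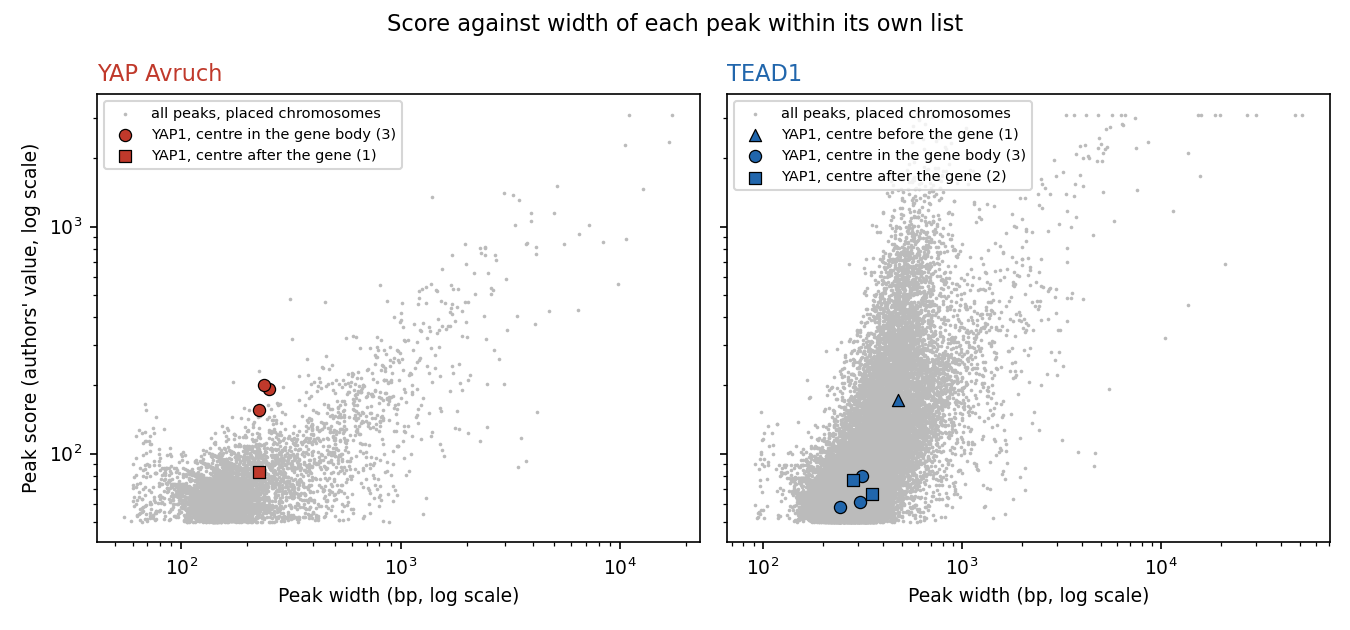
Score (vertical axis, log scale) against width in bp (horizontal axis, log scale) of each peak on placed chromosomes, for the Avruch list on the left and the TEAD1 list on the right, with the peaks at YAP1 as large symbols. The 3 Avruch peaks in the gene body lie between 225 and 250 bp, where 7 of 241 Avruch peaks score at least 155.35, whereas the TEAD1 peaks at YAP1 lie within the main cloud.

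The fourth Avruch peak differed from the others in score and place. It lay after the gene, at chr11:102118404-102118629, from 14250 to 14475 bp beyond its end, and was 226 bp wide with a score of 82.83. Of all Avruch peaks, 83.4% scored lower and 82.9% were narrower. Among the 3151 Avruch peaks of like score on placed chromosomes, the median width was 158 bp and 81.9% were narrower. So this peak was wide for its score, where the 3 inside the gene were narrow for theirs.

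The TEAD1 peaks were led by one across the start of YAP1. It lay at chr11:101980814-101981293, from 378 bp before the start to 101 bp after it, was 480 bp wide and had a score of 172.29, with 90.8% of TEAD1 peaks scoring lower. Its centre was 138.5 bp before the start, and the GGAATG printed above begins 162 bases before the start annotated on GRCh38. These positions are on different builds, and whether the peak depends on that motif was not tested. RefSeq also lists a long noncoding RNA gene, YAP1-DT, which overlaps the head of YAP1 on GRCh38, so a peak at this place cannot be assigned to one of them. A second TEAD1 peak followed at chr11:101982210-101982524, from 1018 to 1332 bp after the start, with a width of 315 bp and a score of 80.09.

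The other 4 TEAD1 peaks scored near or below the median of their list, which was 67.11, except the last. Inside the gene were a peak of 309 bp at chr11:102054529-102054837 with a score of 60.96 and one of 245 bp at chr11:102064550-102064794 with a score of 58.52. The first of these lay 73.5 kb and the second 83.5 kb after the start, in the stretch that held no Avruch peak. After the gene were a peak of 353 bp at chr11:102118349-102118701 with a score of 66.66 and one of 284 bp at chr11:102148338-102148621 with a score of 76.85. The last lay 44.3 kb beyond the end of the gene. The peak at the start thus stood well above the other 5, for which 30.0% to 66.4% of TEAD1 peaks scored lower.

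Of the 4 Avruch peaks at YAP1, 1 overlapped a TEAD1 peak, and it was the peak after the gene. Over the whole Avruch list the share was 19.4%, but most peaks of the list scored far lower than the 3 inside YAP1. Of the 321 Avruch peaks on placed chromosomes that scored at least 155.35, the score of the weakest of these 3, 196 overlapped a TEAD1 peak (61.1%), against 0 of the 3. Those 321 peaks were mostly wide, with a median of 890 bp, and among the 19 of them at most 300 bp wide 12 overlapped TEAD1 (63.2%). Both sets include the YAP1 peaks. On chromosome 11 such overlap was less common: 38 of its 369 Avruch peaks overlapped a TEAD1 peak. Of the 9 others there that scored at least 155.35, 2 did. The Avruch peak after the gene lay wholly inside its TEAD1 peak, with an overlap of 226 bp that took 64.0% of the TEAD1 peak, and their centres were 8.5 bp apart. From the side of TEAD1, 1 of 6 peaks at YAP1 overlapped an Avruch peak, against 3.11% of all TEAD1 peaks. In each list the peak of this pair was not the highest of the locus: the Avruch peak had the lowest score of 4 and only 2 of the other 5 TEAD1 peaks scored lower than the TEAD1 peak.

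The 3 Avruch peaks inside YAP1 overlapped no TEAD1 peak. The first lay between the TEAD1 peaks at the start, 404 bp after the end of the one and 287 bp before the other. A TEAD1 peak within 1 kb but without overlap was found for 7.85% of all Avruch peaks. The second was 2352 bp from the nearest TEAD1 peak and the third 17670 bp. The close view of the gene start shows these 4 peaks side by side, with the Avruch and TEAD1 peaks alternating and none overlapping.

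**Figure D3:**
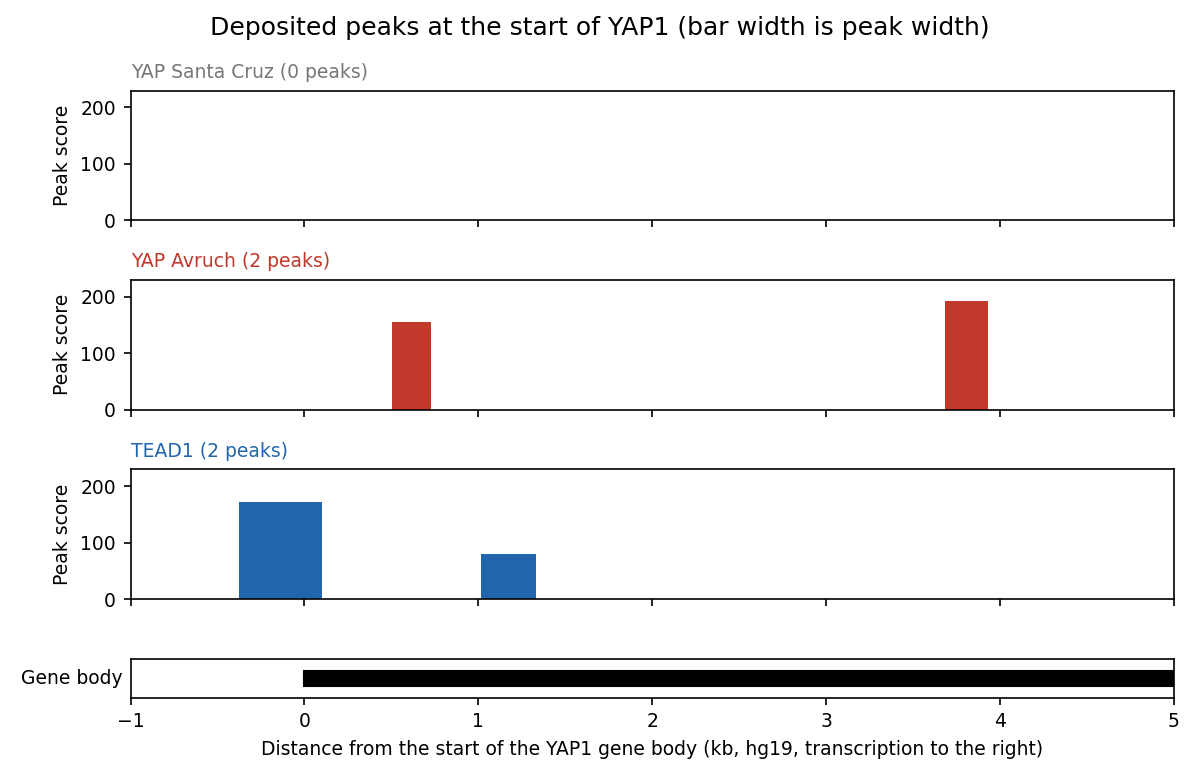
Deposited peaks from 1 kb before to 5 kb after the start of YAP1 (horizontal axis, kb on hg19), drawn to scale as bars whose width is the peak width and whose height is the authors' score. The TEAD1 peak across the start ends 404 bp before the first Avruch peak, the second TEAD1 peak begins 287 bp after it, and the second Avruch peak stands alone.

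The Santa Cruz antibody gave 0 peaks at YAP1, so none of the 4 Avruch peaks was shared by both YAP antibodies. Over the whole Avruch list, 8.16% of peaks overlapped a Santa Cruz peak. The nearest Santa Cruz peak lay at chr11:105420228-105420388, with a score of 50.82 and its centre 3316 kb beyond the end of the gene. On the other side the nearest was 8978 kb away. Chromosome 11 held 69 Santa Cruz peaks in all, and of 13484 windows of the length of the locus (222.963 kb, set end to end over the placed chromosomes), 11.0% held at least 1 Santa Cruz peak. A window without one was therefore usual for this list. Of the 321 Avruch peaks that scored at least 155.35, 221 overlapped a Santa Cruz peak (68.8%), but these 321 were mostly wide, with a median of 890 bp. Among the 19 of them at most 300 bp wide, sharing was less common, at 4 (21.1%), against 0 of the 3 inside YAP1. With 1 library per antibody and unknown depth, a difference between the antibodies at YAP1 was not tested.

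By the same windows, the number of Avruch peaks at YAP1 was unusual and the number of TEAD1 peaks was not. At least 4 Avruch peaks were found in 2.45% of windows (331 of 13484), with a median of 0 per window. At least 6 TEAD1 peaks were found in 21.1% of windows (2846), with a median of 2. The locus was picked for its YAP peaks, so these shares place it in the list and test nothing.

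High-scoring narrow Avruch peaks were rare, and those at YAP1 were a sizeable part of them. A score of at least 155.35, that of the weakest Avruch peak inside YAP1, was reached by 321 of 9753 Avruch peaks on placed chromosomes. Of the 19 that were at most 300 bp wide, 6 overlapped neither of the other lists. The 3 peaks inside YAP1 were among those 6. The other 3 were a peak of 256 bp at chr10:42533770-42534025 with a score of 156.76, one of 281 bp at chr10:66131618-66131898 with a score of 165.68, and one of 68 bp at chr5:68548314-68548381 with a score of 164.77. These 3 scored below the second and the third YAP1 peak, and none of them lay within 150 kb of another of the 19. The limits of score and width were drawn from the YAP1 peaks themselves, so these counts describe and do not test.

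Runs of such peaks were then counted, joining peaks with at most 150 kb between them. Among the 20 Avruch peaks with a score of at least 150 and a width of at most 300 bp, there was 1 run of 2 or more peaks, and it was the 3 peaks inside YAP1. With a score of at least 120, there were 75 peaks and 2 runs of 3 or more, one of them at YAP1, and in both at least 3 peaks overlapped neither of the other lists. With a score of at least 100, there were 223 peaks and 11 runs of 3 or more, 5 of them with at least 3 peaks in neither list. When widths up to 999 bp were allowed at a score of at least 150, there were 197 peaks and 17 runs of 3 or more, 4 of them with at least 3 peaks in neither list. At the same widths there were 28 runs of 3 or more at a score of at least 120 and 38 at a score of at least 100. Of these, 6 and 11 held at least 3 peaks in neither list. YAP1 was the only run at the strictest of these limits. At a score of at least 120 and a width of at most 300 bp it was 1 of 2. Under the other limits it was 1 of 11, 17, 28 or 38. The join distance of 150 kb exceeds the widest gap between the peaks inside YAP1, which was 115.3 kb. With a join distance below that gap, the run at YAP1 would hold 2 peaks, and no shorter distance was tried. The strictest limits of score and width also lie just outside the values of the YAP1 peaks, so these counts describe and do not test.

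Beyond the 50 kb limit, the nearest TEAD1 peak on each side scored higher than those at the gene, and the nearest Avruch peak on each side scored lower. The nearest TEAD1 peaks left out were one at chr11:101881833-101882216, 99.2 kb before the gene with a score of 269.23, and one at chr11:102176936-102177595, 73.1 kb after it with a score of 442.23. Both scored above all 6 TEAD1 peaks at YAP1. The nearest Avruch peaks left out were 133.0 kb before the gene (score 74.69) and 527.7 kb after it (score 71.76). Between the 50 kb limit and 600 kb from the gene there were 4 Avruch peaks, with scores of 56.25 to 76.9 and widths of 151 to 178 bp, and 1 of them overlapped a TEAD1 peak. All 4 scored below the lowest Avruch peak at YAP1 and were narrower than it. RefSeq places CFAP300 before YAP1 and BIRC3, an inhibitor of cell death, after it as the nearest protein-coding genes on GRCh38, and peaks were not assigned to these genes.

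**Figure D4:**
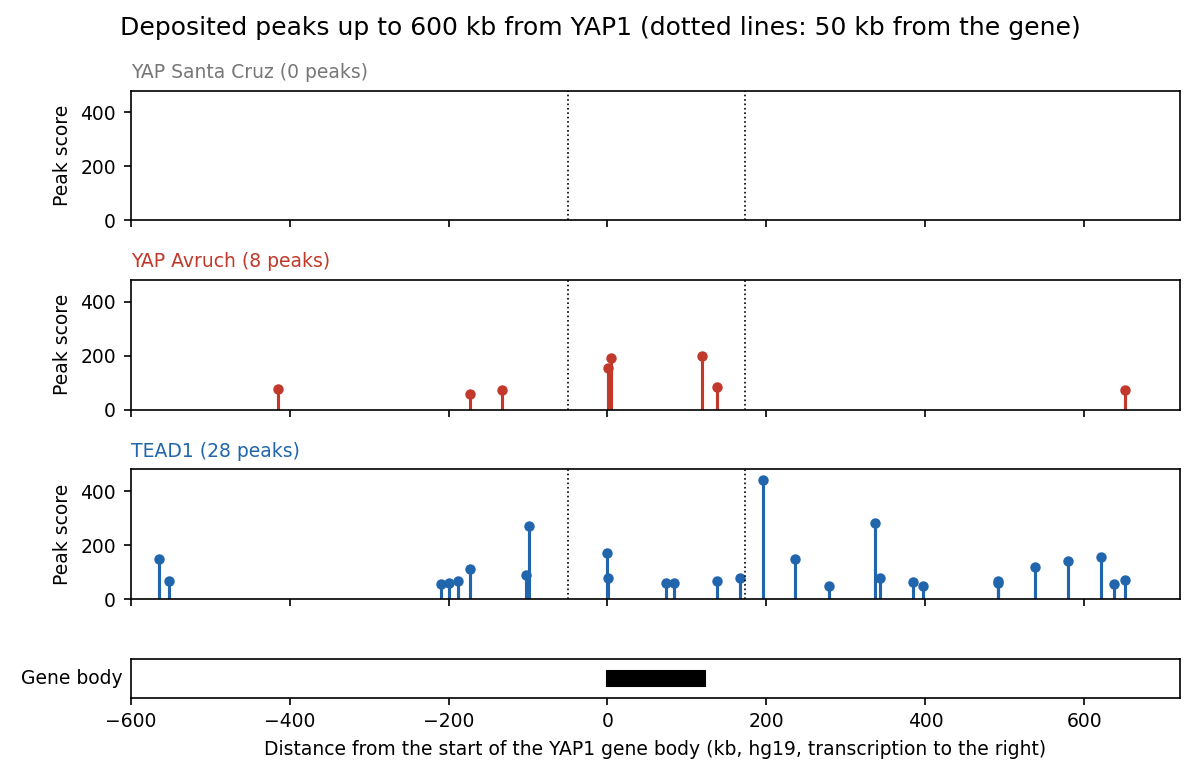
Score of each deposited peak (vertical axis, authors' value) up to 600 kb from YAP1, against distance from the start of the gene body in kb on hg19, with dotted lines 50 kb from the gene. In the Avruch panel the 3 highest of 8 peaks stand inside the gene, whereas in the TEAD1 panel the highest of 28 peaks, at 442.23, stands outside the dotted lines.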

How the data were processed

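The values were 3 deposited peak lists of H69 ChIP-seq, 1 per antibody, in BED form with positions on hg19. Reads were aligned with Bowtie2, per the submitters' processing notes, and the peak names carry the name of the caller MACS, per the deposited files. No source used here gives its version or settings, the control library or the handling of duplicate reads. The score of each peak is the authors' deposited value, has no stated unit and was used only within a list. Peaks were called per library, so no replicate error exists and no test was run.

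Starts were moved to 1-based positions. Overlap means at least 1 bp, and the overlap code was checked on simulated peaks. Windows of the length of the locus were laid end to end from the first to the last peak of each placed chromosome, gaps in the assembly included. The planned comparison with exon edges and the values of other Hippo pathway genes were not run, because no hg19 annotation was used here. Exon lengths and distances between exons of another build, planned as a substitute, were not set beside peak widths and distances either. Promoters came from RefSeq (GRCh38.p14), and 13 of 17 listed genes matched (TEAD1, TEAD4, STK3 and CCN1 did not). Every peak that met the position rule is named. The locus, the gene list and the limits of score, width and run length were chosen with earlier results of these data known. Alternatives were the flank, the 50% of peaks with the highest scores, joined peaks, other overlap rules and ranks among autosomal peaks under 1 kb. Python 3.11.15, pandas 2.3.3, numpy 2.4.6 and scipy 1.17.1 were used.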

Additional observations from a re-analysis of the deposited data

How the results depend on the processing

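The 4 Avruch peaks and 0 Santa Cruz peaks at YAP1 held within 1.5 times for the gene body alone, a flank of 100 kb, the 50% of peaks with the highest scores of each list, and peaks joined over gaps of at most 1 kb. The Avruch count was 3 in the gene body alone, without the peak that overlapped TEAD1, and 4 under the other settings. Joining could not change it, as the smallest gap between the Avruch peaks was 2954 bp. The 6 TEAD1 peaks became 3 in the gene body alone, 3 among the higher-scoring 50%, 8 with a flank of 100 kb and 5 when joined. The 1 Avruch peak that overlapped TEAD1 became 2 where a gap of at most 1 kb counted, 0 among the higher-scoring 50% (the TEAD1 score of 66.66 is under the median of 67.11) and 0 in the gene body alone. Sharing with Santa Cruz was 0 under each rule tried. None of the rules could change this 0 or the count of Santa Cruz peaks, as the nearest lay 3316 kb beyond the gene.

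Ranks were redrawn among autosomal peaks under 1 kb wide, which leaves out wide, high-scoring peaks. For the 4 Avruch peaks in order of position, the percentage scoring lower became 98.2, 99.1, 99.2 and 86.6, and the percentage narrower 86.7, 89.1, 88.1 and 86.8. For the TEAD1 peaks in order of position, the percentage scoring lower became 91.5, 67.2, 36.8, 30.4, 49.9 and 64.3. The percentage narrower became 91.6, 65.8, 63.9, 32.4, 75.8 and 54.5. The match of peak edges with exon edges, with its tolerances, was not run. Depth, replicate spread and the IgG library limit all counts and were not measured here.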
